A study of Homo sapiens with 15 samples.

Results

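The SP100 nuclear body gene cluster comprises 4 neighbouring genes on the long arm of human chromosome 2, SP110, SP140, SP140L and SP100, which lie within 380 kb (chr2:230165186-230545606, hg38). Its members were chosen by name and position with the MPP8 peaks of these data in view, so the peaks at these genes are described and not tested. All 4 members were found among the 20033 protein-coding genes annotated on the assembled chromosomes. Within the cluster and 10 kb on each side, 4 of 427 deposited peaks lay in TASOR KO cells and 0 of 264 in TASOR2 KO cells.

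MPP8 was mapped by chromatin immunoprecipitation and sequencing (ChIP-seq) in K-562, an established chronic myeloid leukaemia line. Peak lists of 2 of the 15 samples were used, both made with the same antibody to MPP8: K-562 TASOR KO and K-562 TASOR2 KO, with 1 library each. Per the labels, knockouts were made by CRISPR/Cas9 and grown from single sorted cells as clones, so each genotype may stand for a single clone. The labels also describe lentiviral transduction with an empty vector or a transgene, and do not say whether these libraries came from transduced cells. The other 13 samples, among them unedited and MPP8 KO cells and input chromatin, were not used here. There was thus no replicate error and no measured background, and the differences given are between deposited lists.

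MPP8 is a chromodomain protein that binds methylated lysine 9 of histone H3 and belongs to the human silencing hub (HUSH), which TASOR scaffolds and which silences LINE-1 elements and other intronless foreign DNA. TASOR2 is the paralog of TASOR. SP100 proteins are constituents of PML nuclear bodies, nuclear domains that restrict incoming viral genomes, and members of the family are induced by interferon. They share an N-terminal assembly domain with the immune regulator AIRE, and most carry a DNA-binding SAND domain and, in some isoforms, a PHD finger with a bromodomain.

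The cluster holds 6 listed RefSeq transcription starts. Of the 300-base windows around them (250 bases before to 50 after the start), 4 are printed to show the stretch marked in them. SP110 runs on the minus strand and the other 3 genes on the plus strand. The windows are those of the inner start of SP110 (chr2:230219935-230220234), of SP140 (chr2:230225486-230225785), of SP140L (chr2:230326943-230327242) and of the first start of SP100 (chr2:230415951-230416250), each read in the direction of its own gene. Capitals mark a run of 16 bases that the first 3 share and that SP100 carries with 1 substitution.
SP110 inner start: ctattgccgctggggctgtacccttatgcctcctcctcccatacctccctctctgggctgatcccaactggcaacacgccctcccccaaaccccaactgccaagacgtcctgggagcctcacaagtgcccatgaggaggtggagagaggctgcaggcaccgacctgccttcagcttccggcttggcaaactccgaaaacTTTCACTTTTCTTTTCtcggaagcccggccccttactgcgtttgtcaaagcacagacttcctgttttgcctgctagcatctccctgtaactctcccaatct
SP140 start: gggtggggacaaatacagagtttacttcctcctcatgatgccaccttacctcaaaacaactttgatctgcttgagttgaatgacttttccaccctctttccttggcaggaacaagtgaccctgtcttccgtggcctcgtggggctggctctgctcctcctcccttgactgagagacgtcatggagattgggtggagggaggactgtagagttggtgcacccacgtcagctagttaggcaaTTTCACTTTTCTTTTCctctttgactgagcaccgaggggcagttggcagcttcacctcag
SP140L start: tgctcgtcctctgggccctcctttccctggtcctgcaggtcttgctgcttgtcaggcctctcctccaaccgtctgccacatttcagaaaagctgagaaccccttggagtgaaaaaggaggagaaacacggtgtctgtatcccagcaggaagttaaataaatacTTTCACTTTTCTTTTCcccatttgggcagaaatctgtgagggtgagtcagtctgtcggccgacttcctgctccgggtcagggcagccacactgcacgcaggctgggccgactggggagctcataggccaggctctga
SP100 first start: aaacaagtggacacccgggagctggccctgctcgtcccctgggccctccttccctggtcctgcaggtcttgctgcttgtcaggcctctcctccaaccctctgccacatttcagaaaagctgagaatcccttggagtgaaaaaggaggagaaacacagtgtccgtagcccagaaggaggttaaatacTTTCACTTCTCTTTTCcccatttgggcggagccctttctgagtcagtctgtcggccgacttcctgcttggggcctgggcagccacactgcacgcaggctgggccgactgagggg

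In TASOR KO cells MPP8 peaks covered the starts of 3 of the 4 genes, SP110, SP140L and SP100. The start of SP140 lay in no peak. SP100 had a further peak inside the gene. No peak of the TASOR2 KO list fell on any of these genes. Numbered along the chromosome, peaks 1 to 4 covered 19.8 kb, or 4.95% of the 400 kb examined, and made up 0.937% of the TASOR KO peaks.

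**Figure D1:**
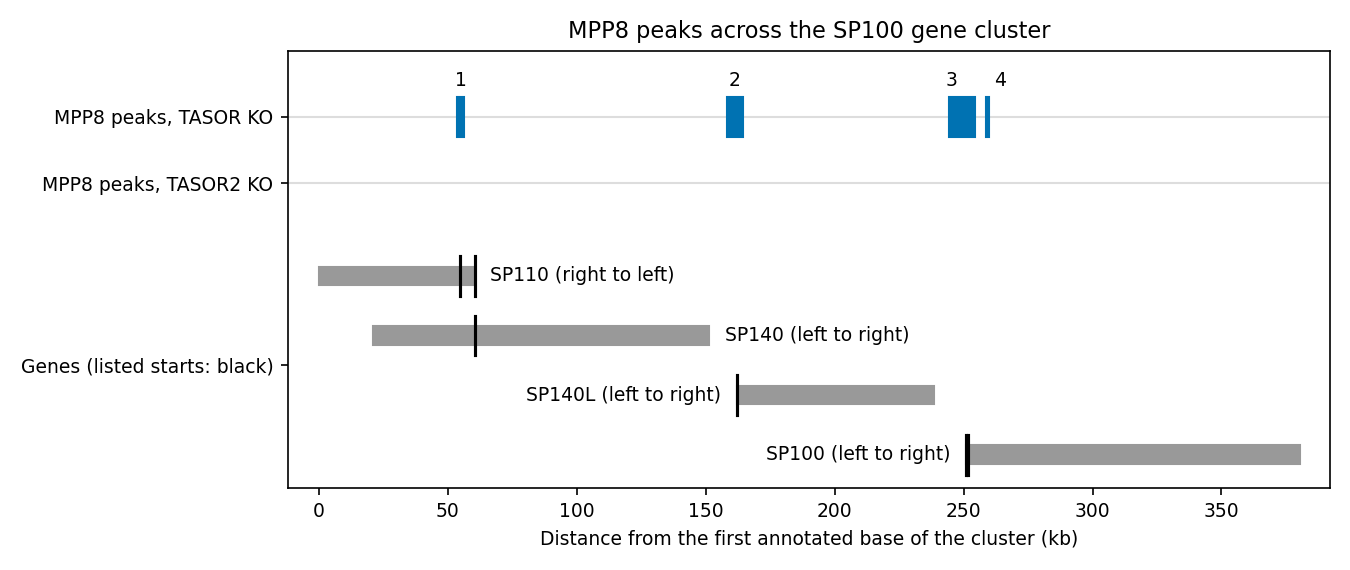
MPP8 peaks of TASOR KO cells (blue, numbered 1 to 4) and of TASOR2 KO cells (0 peaks) above the annotated spans of the 4 genes (grey) with their listed starts (black ticks); the x axis is the distance in kb from the first annotated base of SP110. Peaks 1, 2 and 3 stand over starts of SP110, SP140L and SP100, and peak 4 lies inside SP100.

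Peak 1 lay at SP110 (gene ID 3431, chr2:230165186-230225636), which encodes a nuclear body protein whose loss in humans causes an immunodeficiency with hepatic veno-occlusive disease. In TASOR KO cells the peak spanned chr2:230218702-230221541, a width of 2840 bp, with a fold enrichment of 5.23 and a −log10 q of 3.84 as the authors' peak caller gave them. It was the strongest of the 4 by both values and ranked 33 of 427 in the list by −log10 q. SP110 has 2 listed starts 5.65 kb apart. The peak covered the inner one, with its centre 137 bp from that start, and ended 4.10 kb short of the outer one.

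SP140 (gene ID 11262, chr2:230186151-230316571) encodes a reader of histone marks found mainly in immune cells. Its listed start and the outer start of SP110 face away from each other 100 bp apart, and their windows share 199 bases. In TASOR KO cells neither of these head-to-head starts lay in a peak. Peak 1 nevertheless lay inside the annotated span of SP140, because that span begins 39.6 kb before the listed start and overlaps SP110. It ended 4.20 kb upstream of the listed start of SP140, so the assignment of peak 1 to SP140 rests on the annotated span alone. No other peak overlapped SP140.

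Peak 2 lay at SP140L (gene ID 93349, chr2:230327193-230403732), a paralog named for its likeness to SP140. In TASOR KO cells it spanned chr2:230323487-230329563, a width of 6077 bp, with a fold of 4.48 and a −log10 q of 2.58, and ranked 69 of 427. It reached 3706 bp upstream of the start and 2370 bp downstream, with its centre 668 bp from the start. Of its bases, 39.0% lay inside the gene. It began 6.92 kb beyond the annotated end of SP140.

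SP100 (gene ID 6672, chr2:230416201-230545606), the founding member of the family, carried peaks 3 and 4 in TASOR KO cells. Peak 3 spanned chr2:230409414-230419462, a width of 10049 bp, and was the widest of the 4 and the 10th widest of all 427. Its fold was 3.91 and its −log10 q 1.58, rank 113 of 427. It covered both listed starts of SP100, which are 555 bp apart, and reached 6787 bp upstream of the first, so that 32.5% of it lay inside the gene. Peak 4 spanned chr2:230424026-230424891, 866 bp wholly inside SP100, and its near edge was 7.83 kb downstream of the first start. It was the weakest of the 4, with a fold of 3.29 and a −log10 q of 0.524 (rank 294 of 427).

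**Figure D2:**
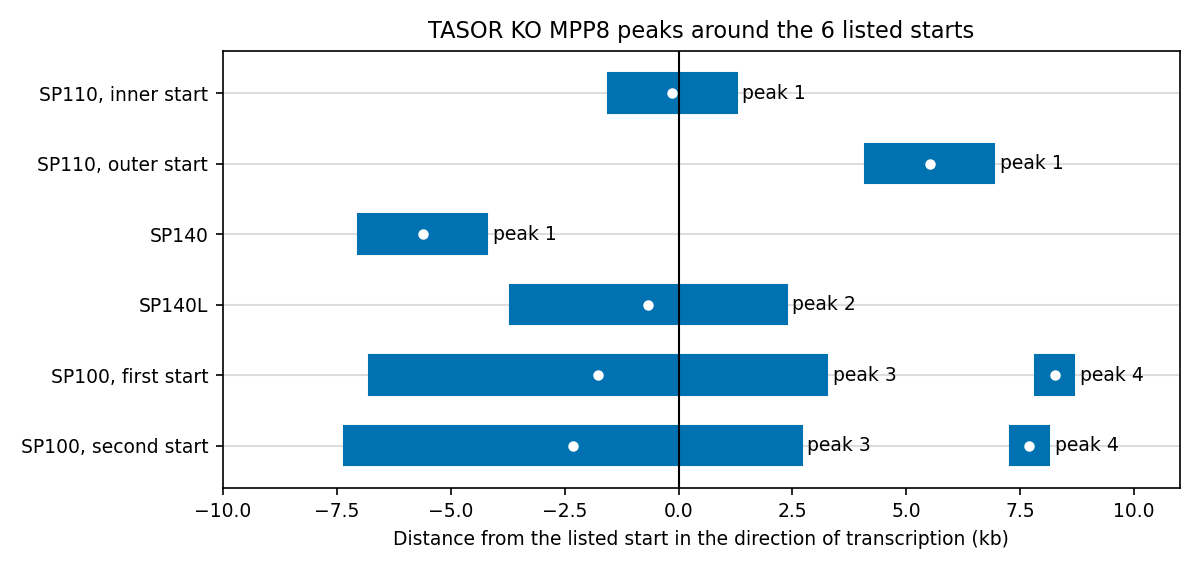
TASOR KO MPP8 peaks (blue bars, centre as a white point) around each of the 6 listed starts of the cluster; the x axis is the distance in kb from the start in the direction of transcription, and a peak within reach of several starts is drawn for each. Peaks 1, 2 and 3 cross the line at 0 for the inner start of SP110, for SP140L and for both starts of SP100, whereas SP140 and the outer start of SP110 have no peak at 0.

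At the 4 starts that lay in a peak, the whole 300-base window was covered. The peaks differed in how far they extended. Peaks 1, 2 and 3 each reached farther upstream than downstream of the start, by the smallest margin at peak 1 (1557 bp upstream and 1282 bp downstream). From peak 1 to peak 3 the width increased along the chromosome as the fold and the −log10 q decreased. Neighbouring peaks were 101.9 kb, 79.9 kb and 4.56 kb apart.

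Against their own list, peaks 1, 2 and 3 were above its median fold of 3.35, and peak 4 was just below it at 3.29. Peaks 1, 2 and 3 were also wider than the list's median of 1929 bp, and peak 4 was narrower. At the common threshold of q = 0.05, 3 of the 4 passed, with q of 0.000143 for peak 1, 0.00265 for peak 2 and 0.0266 for peak 3, whereas the q of peak 4 was 0.299. In the whole TASOR KO list 138 of 427 peaks (32.3%) passed. Since the cluster was chosen for its peaks, these ranks are a description.

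**Figure D3:**
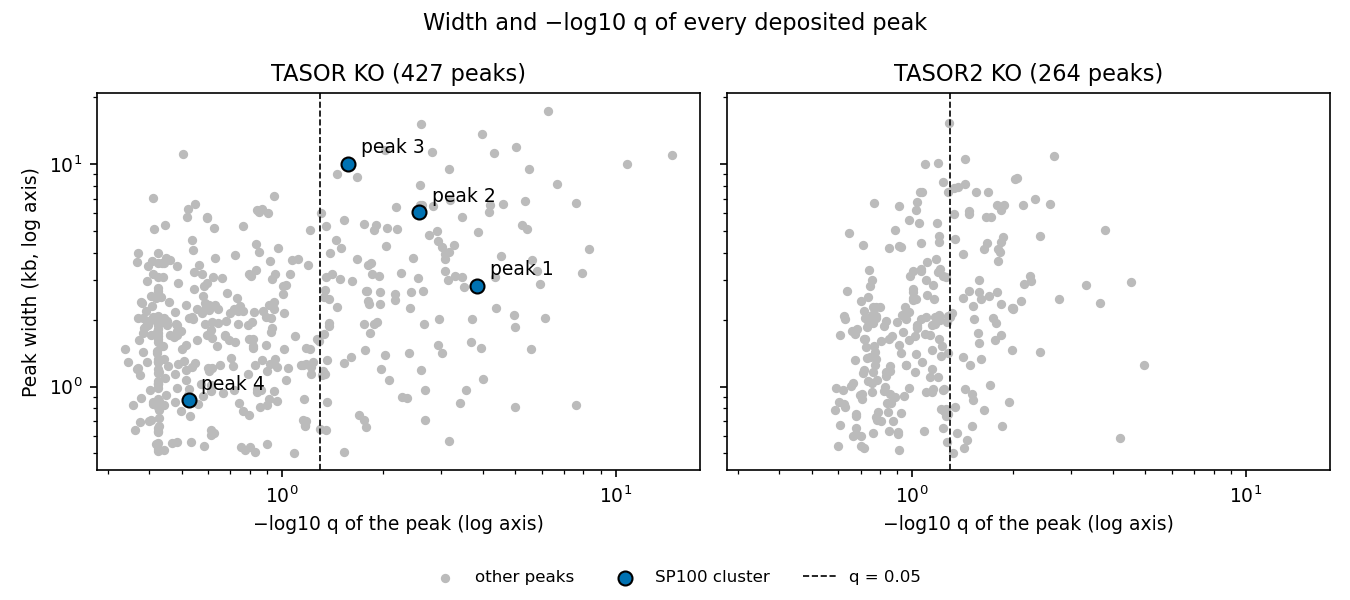
Width in kb against the authors' −log10 q (both on log axes) for every deposited peak, with TASOR KO (427 peaks) left and TASOR2 KO (264 peaks) right, peaks of the SP100 cluster in blue, all others in grey and q = 0.05 as a dashed line. Peaks 1, 2 and 3 stand to the right of the line and peak 4, with a −log10 q of 0.524, to its left; the TASOR2 KO panel has no peak of the cluster.

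In the deposited lists the cluster held 4 of the 27 TASOR KO peaks of that chromosome (14.8%), and the nearest other TASOR KO peak, at chr2:201233464-201234165 with a fold of 3.73, ended 28.9 Mb before the cluster. No deposited TASOR KO peak followed it on the chromosome. In TASOR2 KO cells chromosome 2 had 5 peaks, of which the last, at chr2:201168363-201171465 with a fold of 4.17, ended 29.0 Mb before the cluster. No peak of the cluster in TASOR KO cells overlapped a TASOR2 KO peak or lay within 100 kb of one.

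Each peak carries a number from its caller, and in both lists these numbers follow position but skip values, so peaks of a longer list were left out. The highest number is 13397 among the 427 TASOR KO peaks and 1512 among the 264 TASOR2 KO peaks. Most numbered calls are thus missing from both lists, and the part kept may differ between them. Ranks and shares given here hold among the deposited peaks only. Peaks 1 to 4 carry the consecutive numbers 6482 to 6485, so that no numbered call lay between them in the longer TASOR KO list. Between the cluster and the deposited peak before it 13 numbers are skipped, and 4 between the cluster and the next deposited peak, on chromosome 20, so the distances to other TASOR KO peaks hold for the deposited list only. The last TASOR2 KO peak of chromosome 2 carries number 901 and the next deposited one, on chromosome 20, number 929, so 27 numbered calls between them are not in the list used here. Whether any of these lay in the cluster cannot be told from the numbers. The 0 peaks in TASOR2 KO cells therefore describe the deposited list and not an absence of MPP8.

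Over all protein-coding genes, 216 of 20033 (1.08%) had a peak in the annotated span in TASOR KO cells and 172 (0.859%) in TASOR2 KO cells, beside 4 of 4 and 0 of 4 members. Over all 35116 listed starts, 137 (0.39%) lay in a TASOR KO peak and 5 (0.0142%) in a TASOR2 KO peak, beside 4 and 0 of the 6 starts of the cluster. These shares give the background only, as the members were picked on the same peaks. Genes and starts of chromosome 1 are counted in them. TASOR KO calls numbered below 1612, where that chromosome would stand, are not in the list used here. Among the other 412 TASOR KO peaks on chromosomes with listed starts, 96 (23.3%) held at least 1 start, and among the 4 of the cluster 3 did.

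The 16-base run marked in the windows above is shared by the inner and outer starts of SP110, by SP140 and by SP140L, and reads as follows beside the form found at SP100.
Run at SP110, SP140 and SP140L: GAAAAGAAAAGTGAAA
Run at SP100: GAAAAGAGAAGTGAAA
The forms differ by A8G, counted from 1 at the 5′ end of the run. The run lay at positions -51 to -36 from the inner start of SP110, -87 to -72 from the start of SP140L and, in its SP100 form, -64 to -49 from the first start of SP100. At SP140 it lay across the start, from -10 to 6, and the same copy stood at -105 to -90 from the outer start of SP110. It stood on the strand opposite to the gene, except at the outer start of SP110, where it stood on the gene's own strand. The second start of SP100 had no copy within 3 substitutions. In the 35116 RefSeq windows, 4 (0.0114%) held the run, all of them of the cluster, and 1 held the SP100 form. The run was defined as the longest stretch shared by the windows of both SP110 starts, SP140 and SP140L. Its presence in these 4 windows was therefore fixed by that choice and says nothing about the peaks. Of these starts, the SP110 inner start and SP140L lay in TASOR KO peaks. The SP110 outer start and SP140, which hold the same copy, lay outside them.

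**Figure D4:**
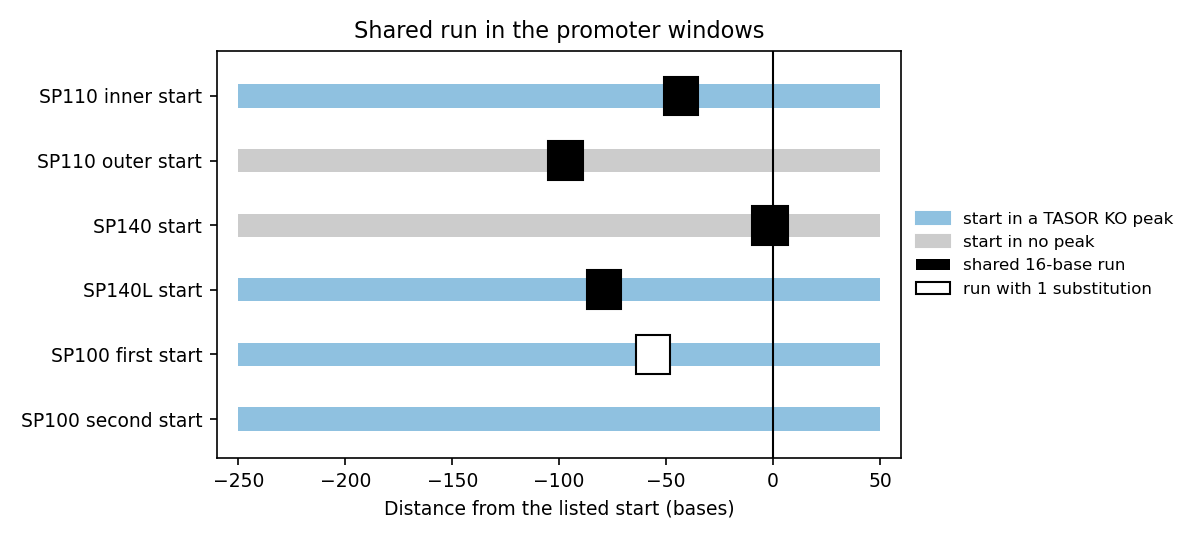
Position of the shared 16-base run in the 6 promoter windows of the cluster; the x axis is the distance in bases from the listed start, windows whose start lay in a TASOR KO peak are blue and the others grey, black boxes are exact copies and the white box is the SP100 form with 1 substitution. Exact copies appear in 2 blue and 2 grey windows, and the grey windows hold the same copy.

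Of the motifs searched on both strands, the half-site bound by interferon regulatory factors (AANNGAAA) was found in 5 of the 6 windows, in each case inside the run or its SP100 form, and in 22.8% of all windows. This motif and the run were chosen after the sequences were read. The core of the interferon-stimulated response element, 2 copies of GAAA with 2 bases of any kind between them, was in 0 of the 6 windows and in 3.57% of all windows. Only that spacing was searched. The run holds copies of GAAA at other spacings, so the count does not show that the windows lack a response element. The gamma-activated sequence (TTCNNNGAA) was found at the inner start of SP110, at positions -38 to -30 and overlapping the run by 3 bases, and in 7.66% of all windows. An E-box (CACGTG) was found at the second start of SP100 and in 7.26% of all windows. The windows held 4 to 9 CG dinucleotides, against a median of 14 over all windows. Of all windows, 24.5% held fewer than 4 and 41.6% fewer than 9, so these counts were not unusually low.

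The windows of SP140L and the first start of SP100 were near copies of each other. Aligned over their full length, 251 bases were identical and 21 differed (92.3% identity outside gaps), with 56 gap positions, and the longest identical stretch was 48 bases. The inner start of SP110 was less alike, with 63.6% identity to SP140L and 64.9% to SP100 outside gaps. Against the opposite strands of the same windows it had 61.2% and 61.1%. Identities of this size thus arose in this alignment on either strand and alone are not a sign of likeness. The alignment score, which also counts gaps, was higher on the same strand. It was 97.5 against 78 for SP140L and 114 against 57 for SP100. Whether the inner start of SP110 is related to these windows was not tested. Peaks 2 and 3, at SP140L and SP100, were called at paralogous starts 89.0 kb apart. The labels do not say how reads matching both copies were placed, and the part of such reads in these peaks was not tested.

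Genes related to SP100 proteins by location or domain carried no peak outside the cluster. None of 32 genes of PML nuclear bodies, among them PML, DAXX and ATRX, had a peak in its span in TASOR KO or in TASOR2 KO cells. Nor did any of the other 21 genes that encode a SAND domain, an AIRE-type assembly domain or a PHD finger with a bromodomain, such as AIRE, DEAF1 and TRIM28. Of 17 protein-coding neighbours within 1 Mb of the cluster, 0 had a peak in either list. At a background of 1.08% and 0.859% of genes, lists of these sizes would hold few such genes in any case. The deposited TASOR KO numbers start at 1612, on chromosome 10, and the TASOR2 KO numbers at 1. In both lists chromosome 20 comes next after chromosome 2, an order that places chromosome 1 before chromosome 10. TASOR KO calls with lower numbers were not seen, so a gene of chromosome 1 counts as without a TASOR KO peak regardless.

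Of 34 genes of interferon signalling and interferon regulatory factors that are reported here, 1 had a peak in TASOR KO cells and 1 in TASOR2 KO cells (2.94% each). Over all protein-coding genes the shares were 1.08% and 0.859%. A single gene in a list of this size says nothing about the list, so both are given as a description. As above, a TASOR KO peak on chromosome 1 could not have been seen. The TASOR KO peak spanned the upper-coordinate end of IRF2, which encodes an interferon regulatory factor (chr4:184473506-184475451, fold 3.93, q 0.0118). Its fold was below those of peaks 1 and 2 of the cluster. The TASOR2 KO peak lay inside JAK2, a kinase of cytokine receptors (chr9:5103606-5105524, fold 4.11), with a q of 0.0670.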

How the data were processed

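MPP8 ChIP-seq peak lists of 1 TASOR KO and 1 TASOR2 KO library were used, and samples were grouped by title. Per the labels' protocols, chromatin was cut with MNase and sonication and received mouse chromatin as a spike-in. The submitters' processing notes name the aligner Bowtie2 (2.3.5.1), the peak caller MACS2, deepTools and the builds hg38 and mm9. Neither the labels nor these notes give the control library, the threshold or any spike-in scaling.

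The authors called peaks separately for each library, and the deposited score, fold enrichment (ratio), −log10 p and −log10 q of each peak were computed by the authors' peak caller before deposit. The files have no header, so these columns were read from the order MACS2 uses for broad peaks. In all 427 TASOR KO and 264 TASOR2 KO peaks the deposited score was 10 times the −log10 q without its decimals. The highest q present was 0.460 for TASOR KO and 0.258 for TASOR2 KO, so the lists may differ in threshold as well as in genotype. Sequencing depth is unknown.

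Gene spans, listed starts and promoter windows came from RefSeq (GRCh38.p14, the hg38 assembly; all 4 members matched). The tables hold no exons, and no listed start was used for chromosomes of 11 TASOR KO and 10 TASOR2 KO peaks. Coordinates are 1-based and overlap means 1 bp or more. Windows were aligned globally with Biopython 1.88; other steps used Python 3.11.15, numpy 2.4.6, pandas 2.3.3 and matplotlib 3.10.9. The overlap step was tested on simulated data. No p-value was computed, as there was 1 library per genotype. The members, the 4 gene lists and the motifs were chosen with earlier results of these data known. The rule for named genes was the 4 members, every peak at the cluster, the nearest peaks outside it and every gene of the lists with a peak. A gene of the interferon list is not reported here and was left out of its counts. Alternatives were a q threshold of 0.05, the higher-scoring part of each list, peaks extended by 1 kb, other margins, windows of 5 kb and, added after seeing the data, gene spans counted from the listed start. Protein sequences and peak sequences were not used here.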

Additional observations from a re-analysis of the deposited data

How the results depend on the processing

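Of 66 alternative counts over 15 results, 65 stayed within 1.5 times the count given. Of these, 38 belong to a count of 0 and all stayed at 0, though settings that only drop peaks could not raise it. Others could hardly move. The 4 genes with a TASOR KO peak in the list of SAND, assembly-domain or PHD paralogs are the 4 members again. The nearest other deposited peak lay far beyond the wider margin. The 65 are thus not separate checks. The count that moved was that of interferon signalling genes in TASOR2 KO cells, where JAK2 was lost at a q of 0.05 or less (0 genes). In TASOR KO cells the cluster kept 3 peaks at a q of 0.05 or less and 3 in the higher-scoring part of the list, peak 4 being the one that was lost, and 4 without a margin and with a margin of 100 kb. Members with a TASOR KO peak in the span numbered 4, or 3 when SP140 was counted from its listed start, a setting chosen after seeing the data. Members with a peak near the start numbered 3 within 1 kb and 4 within 5 kb, where SP140 joined through peak 1. Using either end of the annotated span in place of the listed starts left 2, since the inner start of SP110 is not an end of its span. No paired analysis was possible because there was 1 library for each knockout, and none could be left out. The planned comparison of the 4 proteins was not run. Depth is unknown, so how many reads lie behind each peak cannot be given.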

Other observations

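Windows close to the shared run occurred outside the cluster too. With at most 1 substitution, 8 windows of other genes matched, and the start of 1 of them, BTN3A3, a butyrophilin gene, lay in a TASOR KO peak. With at most 2 substitutions, 76 other windows matched, of which 6 had their start in a TASOR KO peak and 0 in a TASOR2 KO peak. Over all 35116 listed starts, 0.39% lay in a TASOR KO peak and 0.0142% in a TASOR2 KO peak. At the latter share, 0 of 76 carries no information. These counts were not tested.

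No window of the cluster held the core of the interferon-stimulated response element at the spacing searched. Outside the cluster, this core was found in 32 of the 133 windows whose start lay in a TASOR KO peak (24.1%), beside 3.57% of all windows. The gamma-activated sequence was in 20 of the 133 (15.0%, beside 7.66%), the half-site of interferon regulatory factors in 49 (36.8%, beside 22.8%) and the E-box in 4 (3.01%, beside 7.26%). Every response element core contains the half-site, so the 32 windows with the core are among the 49. The share for the half-site is thus not a separate observation. Of 5 such windows in TASOR2 KO cells, 1 held the response element core, 2 the half-site and 0 either of the other motifs. The 133 starts lay in 96 TASOR KO peaks, so starts in the same peak are not separate observations, and windows of neighbouring starts can overlap. These shares describe the deposited peaks only and were not tested.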
